A study of Rattus norvegicus with 14 samples.

Results

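The genes of the mitochondrial respiratory chain and of ATP synthase were taken by symbol from the table that pairs the probe sets of the array with genes. The rule took symbols that begin with Nduf for complex I, Sdha to Sdhd for complex II, Uqcr for complex III, Cox4 to Cox8 for complex IV and Atp5 for complex V. It found 86 of the 14217 genes that have a probe set with a single symbol, and these 86 genes were covered by 96 probe sets. Each gene was read from the probe set with its highest mean log2 signal over the arrays. Complex I held 42 genes, complex II 4, complex III 7, complex IV 17 and complex V 16. Tests were made on 79 of the 86, those with a signal over the median of the array on 2 or more of the 14 arrays. The 7 others (Cox4i2, Cox6a2, Cox6b2, Cox7b2, Cox8b, Ndufa4l2 and Ndufaf1) did not exceed it on any array. Cox7a2, Uqcrb and the 13 subunits encoded in mitochondrial DNA were not analysed here.

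RNA came from peripheral blood mononuclear cells (PBMC), the lymphocytes and monocytes that a Ficoll gradient separates from blood, of female Wistar rats whose age the labels do not give. NORA were healthy rats and RA were rats with collagen-induced arthritis, a model set off by immunization with bovine type II collagen, both bled on day 0 before any therapy (3 and 2 arrays). HAP were healthy rats, AP arthritic rats, and MTXAP arthritic rats that also received methotrexate, all bled on day 34 of acupuncture, which the study describes as mechanical stimulation with needles (3 arrays each). Rats were killed at sampling, no group was sampled on day 34 without stimulation, and day therefore cannot be told apart from therapy in any comparison of a day 34 group with a day 0 group. The labels do not say whether an array stands for 1 rat, so the p-values measure only the spread between these arrays.

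In cells with mitochondria, complexes I and II pass electrons from NADH and succinate to ubiquinone, complex III passes them on to cytochrome c, and complex IV passes them to oxygen. Complexes I, III and IV pump protons out of the matrix, and complex V, the ATP synthase, uses their return to make ATP. Apart from the subunits of mitochondrial DNA, all members are encoded in the nucleus, and the transcription factors NRF1, GABPA (an ETS factor) and YY1 are known for binding near the start of many of these genes. Lymphocytes that become activated raise both respiration and glycolysis, and mature red cells have no mitochondria.

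The promoters are shown because the members share a nuclear origin, and 3 textbook binding motifs were searched in them. RefSeq promoters of build GRCr8, which run from 250 bases before to 50 bases after the gene's start, matched 78 of the 86 members by symbol. Promoters of Atp5pd, Cox4i2, Cox6a1, Cox6c, Cox6c-ps1, Ndufa8, Ndufb9 and Uqcr11 were not used here. The letters GCGCATG (the core of the NRF1 motif), on either strand, were in 12 of the 78 promoters (15.4%) and in 3.77% of all 33469 promoters of the table. The ETS core CCGGAAG was in 22 (28.2%) against 8.75% of all, and the YY1 core ATGGCGG in 17 (21.8%) against 4.8%. Among the 21851 promoters of protein-coding genes these shares were 4.32%, 10.7% and 6%. At least 1 of the 3 stood in 35 member promoters (44.9%; 15.4% of all promoters), and all 3 stood in those of Sdhb and Ndufa6. The YY1 core was in 12 of 40 complex I promoters and in 0 of 13 of complex IV. In Ndufa2, Ndufa9, Ndufaf8, Ndufb8, Ndufs4, Ndufs6 and Ndufs7 of complex I it lay only in the 50 bases after the start. The same held for Sdhb, Uqcrc1 and Uqcrh. The NRF1 core ends with the ATG that begins the YY1 core, so both can share bases, but no such overlap stands in the member promoters. In Ndufa6 the NRF1 core was found on both strands in overlapping bases. The 250 bases before the start are printed below for 5 members, 2 with all 3 cores and 3 on which the results turn, with each core found there in capitals.
Sdhb (chr5:158547684-158547933, plus strand): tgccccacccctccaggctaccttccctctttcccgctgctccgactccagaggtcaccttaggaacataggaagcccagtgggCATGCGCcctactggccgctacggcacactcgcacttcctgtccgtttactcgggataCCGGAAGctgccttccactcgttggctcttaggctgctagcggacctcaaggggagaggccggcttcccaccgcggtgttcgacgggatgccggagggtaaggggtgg
Ndufa6 (chr7:115750318-115750567, minus strand): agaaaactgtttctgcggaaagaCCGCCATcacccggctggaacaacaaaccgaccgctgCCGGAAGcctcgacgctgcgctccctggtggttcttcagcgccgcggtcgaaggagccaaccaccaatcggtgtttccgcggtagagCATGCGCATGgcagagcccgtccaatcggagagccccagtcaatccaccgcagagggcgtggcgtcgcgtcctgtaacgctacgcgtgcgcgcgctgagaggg
Ndufa1 (chrX:121293556-121293805, minus strand): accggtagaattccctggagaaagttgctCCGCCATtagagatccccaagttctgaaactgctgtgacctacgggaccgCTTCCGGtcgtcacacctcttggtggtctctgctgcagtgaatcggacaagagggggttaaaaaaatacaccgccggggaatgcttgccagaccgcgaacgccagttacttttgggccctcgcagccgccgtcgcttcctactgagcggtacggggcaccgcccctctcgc
Atp5if1 (chr5:150026678-150026927, minus strand): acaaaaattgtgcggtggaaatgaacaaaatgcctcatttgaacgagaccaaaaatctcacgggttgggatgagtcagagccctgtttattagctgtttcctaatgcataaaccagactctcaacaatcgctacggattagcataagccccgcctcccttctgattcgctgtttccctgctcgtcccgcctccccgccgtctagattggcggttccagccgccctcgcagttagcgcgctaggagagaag
Ndufv1 (chr1:210734892-210735141, minus strand): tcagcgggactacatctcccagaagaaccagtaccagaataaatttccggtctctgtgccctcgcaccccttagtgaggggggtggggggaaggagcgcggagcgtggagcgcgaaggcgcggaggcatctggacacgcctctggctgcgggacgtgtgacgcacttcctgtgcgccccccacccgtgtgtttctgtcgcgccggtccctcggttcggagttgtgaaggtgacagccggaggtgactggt
The YY1 core of Sdhb lies in the 50 bases after the start and is not among the printed bases. None of the 3 cores was in the whole promoters of Atp5if1 and Ndufv1, which describes these windows only.

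Several measures differed between the arrays before any comparison. The median signal of all probe sets ran from 104 to 148.6, the ratio of the 3′ to the 5′ actin control probe sets from 1.97 (NORA replicate 3) to 5.01 (MTXAP replicate 3), and both of these arrays also held the extremes of a score of red cell genes (2.16 and -3.93, mean of the centred log2 signals of 15 genes). Markers of T cells, B cells, NK cells and monocytes were measured well, with 14 of 15, 10 of 10, 11 of 13 and 9 of 13 genes above the array median on all 14 arrays. All 12 platelet markers with a probe set were also above it on every array, among them Pf4, Ppbp and Itga2b, and so were 8 of 16 red cell genes. The platelet marker score, the mean of these 12 centred signals, spanned -0.60 to 1.22 in NORA, -1.03 to -0.56 in RA, -0.52 to -0.01 in HAP, -0.09 to 0.49 in AP and -0.43 to 0.43 in MTXAP.

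Nearly all members were well detected. Of the 79 tested, 77 exceeded the array median on all 14 arrays. The exceptions were Cox6c-ps1, a pseudogene copy of Cox6c, on 9 arrays, and Cox7a1, the heart and muscle form of a complex IV subunit, on 2. Their range over the 14 arrays had a median of 0.75 on the log2 scale, from 0.30 for Ndufa9 to 2.14 for Atp5if1 and 4.35 for Cox7a1. For 65 of the 79, the SD within groups was larger than the SD of the 5 group means. In complex II this held for 2 of 4 genes. Means of 2 or 3 arrays spread less than single arrays even without group differences, so these counts are descriptions only. The mean of all 79 centred members stayed close to 0 in every group, at -0.06 ± 0.06 in NORA (SD, n = 3), 0.04 ± 0.02 in RA (n = 2), 0.02 ± 0.05 in HAP (n = 3), 0.05 ± 0.02 in AP (n = 3) and -0.02 ± 0.03 in MTXAP (n = 3). One array stood out among the members as it did in the red cell score, since NORA replicate 3 was the highest array for 18 members and the lowest for 27.

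**Figure D1:**
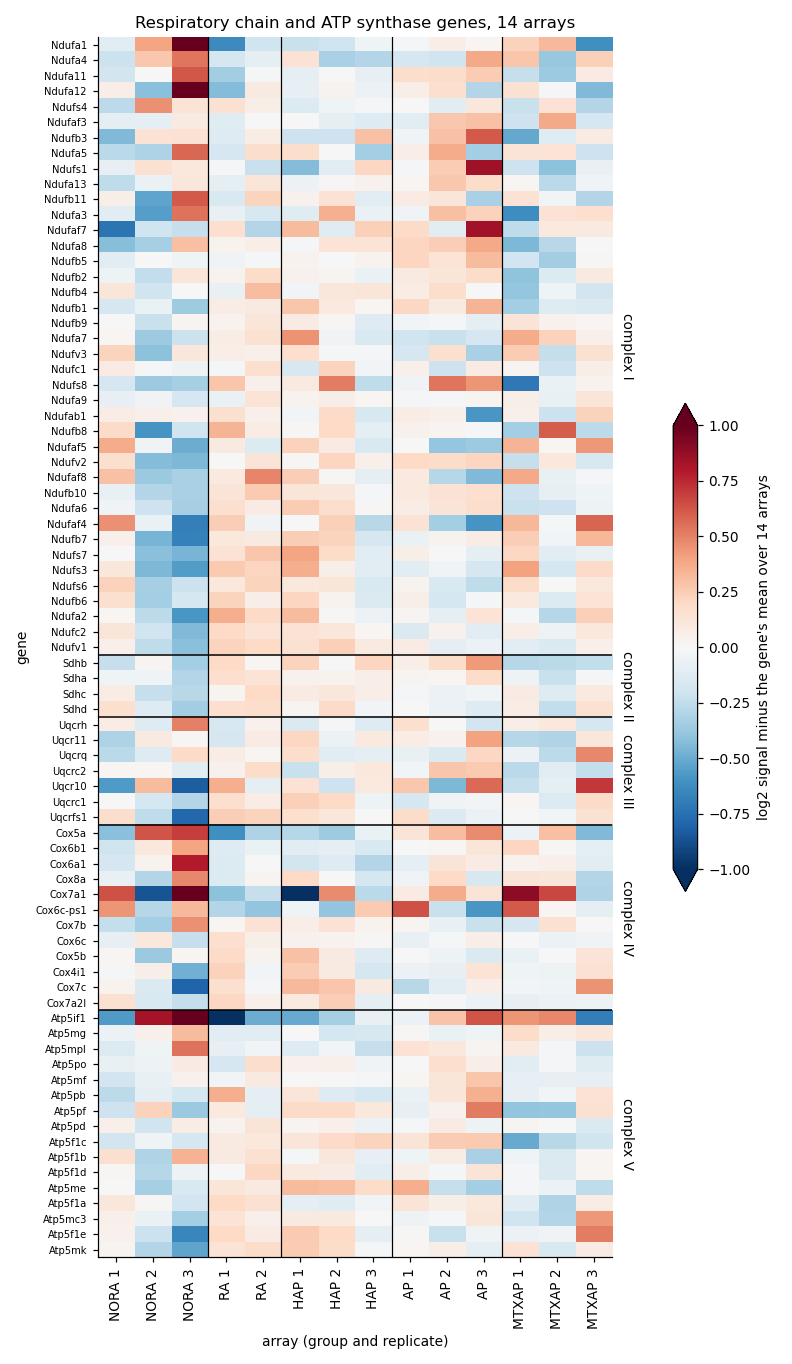
Log2 signal of each of the 79 tested genes minus its mean over the 14 arrays, with genes in rows by complex (within a complex, from the highest to the lowest correlation with the platelet marker score) and arrays in columns by group. NORA replicate 3 carries many of the strongest colours in both directions, being the highest array for 18 genes and the lowest for 27.

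Several subunits of complex IV have forms known from particular tissues. Cox4i1, Cox6a1, Cox6b1 and Cox8a exceeded the array median on every array, and their counterparts Cox4i2 (lung), Cox6a2 and Cox8b (heart and muscle) and Cox6b2 (testis) on none. The same held for Ndufa4, which the rule counts with complex I by its name although it is now placed in complex IV, and its counterpart Ndufa4l2. Cox7a1 read 6.78, 5.27 and 7.72 in NORA, 5.73 and 5.91 in RA, 3.37, 6.61 and 5.87 in HAP, 6.22, 6.51 and 6.27 in AP, and 7.03, 6.81 and 5.84 in MTXAP. It exceeded the array median on 2 arrays only, so its differences are those of a probe set near or below the middle of the array.

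The members did not move as 1 block. Over the 3081 pairs of members, the correlation across the 14 arrays had a median of 0.11, with 58.1% of pairs above 0, against a median of 0.01 and 50.6% over all pairs of tested genes. Within complexes the median was 0.11 for complex I, 0.63 for complex II, -0.03 for complex III, -0.02 for complex IV and 0.07 for complex V. Complex II, the succinate dehydrogenase, was thus the tightest for the chosen probe sets, with all 6 pairs above 0 (0.10 to 0.88). A second probe set of Sdhd had r = 0.09 with the chosen one, and pairs with it are not given here. The arrays are shared by all of these pairs, and the values are descriptions.

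The members differed in their relation to the platelet markers. Across the 14 arrays, 28 of the 79 had a positive and 51 a negative correlation with the platelet score, and the median r was -0.31 (-0.09 over all 18515 probe sets). An r above 0.8 was found for 4 members (5.06%, against 4.22% of all probe sets) and an r below -0.8 for 8 (10.1%, against 2.12%). Of the 553 relations computed between 79 members and 7 marker scores, 22 passed a Benjamini-Hochberg adjusted permutation p of 0.05 for Pearson's r. Of these, 16 were with the platelet score, 9 of which also passed by the rank correlation. The permutation p was computed for members only, so these counts cannot be set beside a share of all probe sets. In bulk RNA of this kind, fewer cells of a type and less RNA per cell cannot be told apart.

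Atp5if1, which encodes the inhibitor that stops ATP synthase from running backwards, followed the score most closely. Its log2 signal was 12.87, 14.27 and 14.52 in NORA, 12.39 and 12.94 in RA, 12.93, 13.10 and 13.36 in HAP, 13.38, 13.71 and 14.06 in AP, and 13.88, 13.91 and 12.74 in MTXAP. NORA and MTXAP each hold 2 high arrays and 1 low one, and the platelet score is high and low on those same arrays. The correlation with the score was r = 0.98 and rho = 0.95 over 14 arrays (adjusted permutation p = 0.00111 and 0.00276), 0.96 without the 2 arrays farthest from the median score, and 0.96 within groups. Cox5a, a complex IV subunit on the matrix side, gave r = 0.94 (rho = 0.94), 0.92 without those 2 arrays and 0.96 within groups. Ndufa1, a small X-linked subunit of complex I, gave r = 0.91 (rho = 0.89), 0.82 and 0.89, and Cox6b1 gave r = 0.86 (rho = 0.83), 0.80 and 0.87.

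Ndufv1, the subunit of complex I that takes the electrons from NADH, ran the other way. It read 10.87, 10.56 and 10.40 in NORA, 11.04 and 11.02 in RA, 10.97, 11.05 and 10.91 in HAP, 10.90, 10.72 and 10.76 in AP, and 10.70, 10.67 and 10.87 in MTXAP. The array with the highest platelet score (NORA replicate 3) was its lowest. Its r was -0.93 (rho = -0.83), -0.88 without the 2 farthest arrays and -0.95 within groups. Sdhd, a membrane anchor of complex II, gave r = -0.90 (rho = -0.90), Cox7a2l, a factor that joins complexes III and IV, r = -0.87 (rho = -0.87), Ndufc2 r = -0.87 (rho = -0.87) and Uqcrfs1, the Rieske iron-sulfur protein of complex III, r = -0.87 (rho = -0.89). A second probe set of Sdhd, also above the array median on all arrays, had r = 0.09 with the first, so the relation of Sdhd holds for 1 of its 2 probe sets. A second probe set of Atp5if1 had r = 0.78 with the first.

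**Figure D2:**
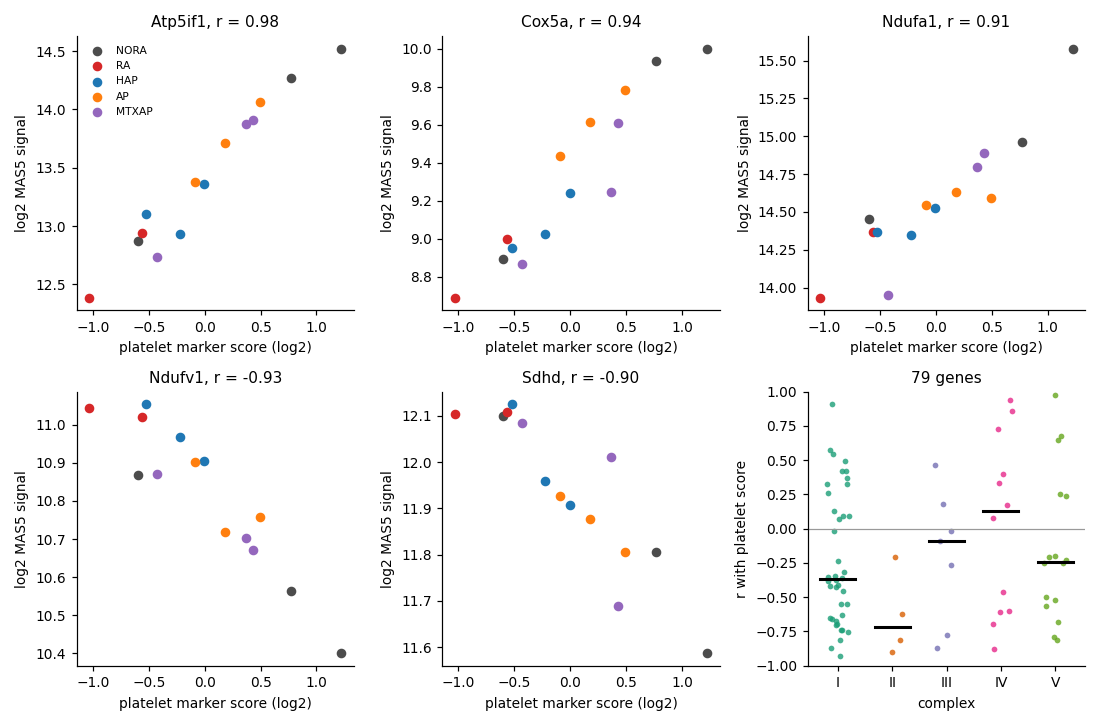
Log2 signal of Atp5if1, Cox5a, Ndufa1, Ndufv1 and Sdhd against the platelet marker score (mean centred log2 signal of 12 markers), 1 point per array coloured by group; the last panel gives the correlation r with the score for each of the 79 genes by complex, with bars at the medians. Atp5if1 climbs with the score (r = 0.98) and Ndufv1 declines (r = -0.93), and complex II has a median r of -0.72.

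Other cell types showed fewer such relations. Atp5mc3, which encodes the c ring of ATP synthase, had r = -0.88 with the red cell score (rho = -0.84), -0.73 without its 2 farthest arrays, and -0.97 within groups. Uqcr10 had r = -0.75 (rho = -0.82) and Atp5f1e r = -0.82 (rho = -0.70) with the same score, -0.60 and -0.55 without those 2 arrays, and both were highest on MTXAP replicate 3, where that score is lowest. Ndufb3 had r = 0.86 (rho = 0.75) and Ndufaf7 r = 0.77 (rho = 0.72) with the monocyte score, 0.70 and 0.74 without 2 arrays. Ndufa13 had r = 0.76 (rho = 0.63) with the NK cell score, 0.55 without 2 arrays. The rank correlations of these 3 and of Atp5f1e did not pass. No member passed with the T cell, B cell or neutrophil scores. Whether the numbers of platelets, red cells or other cells in the preparations play a part in any of these relations was not tested.

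The first comparison asks how arthritic and healthy rats differed before therapy. RA lay above NORA for 60 of 79 members, where 55.5% of all probe sets did, and the median difference was 0.17 on the log2 scale against 0.07 over all probe sets. Centring each array on its own median moved the median of all probe sets to 0.29. Relative to the median of all probe sets, 51 of 79 members lay above it under the deposited scaling and under this centring, and 49 under quantile normalization. By complex the medians were 0.16 for complex I, 0.28 for II, 0.14 for III, 0.01 for IV and 0.16 for V. No member and no probe set passed an adjusted p of 0.05 (0% of all) in the limma fit or in the fit without moderated variances. At an unadjusted p under 0.05 stood 7 members, against 8.47% of all probe sets (1569). Without NORA replicate 1 this count was 17 (22.7% of all probe sets). It was 1 without NORA replicate 2 (7.78%) and 0 without NORA replicate 3 (3.79%). It was 16 without moderation, where 7.79% of all probe sets stood there, and 22 with array weights (23%). The weights of NORA replicates 1, 2 and 3 were 0.32, 2.825 and 0.29, so the weighted NORA mean rests mostly on replicate 2.

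The 3 members below NORA at an unadjusted p under 0.05 (5.36% of all probe sets) also had the 3 highest correlations with the platelet score. Atp5if1 differed by -1.22 ± 0.48 (log2 ± SE, 2.33-fold, adjusted p = 0.58), although its lowest NORA array lay below the higher RA array. Ndufa1 read 14.45, 14.96 and 15.58 in NORA and 13.93 and 14.37 in RA, without overlap, with a difference of -0.85 ± 0.34. Cox5a read 8.89, 9.93 and 10.001 in NORA and 8.69 and 8.999 in RA, with overlap, and a difference of -0.76 ± 0.33. The adjusted p in the limma fit was 0.58 for all 3. The platelet markers themselves were lower in RA for 11 of 12 genes, with a median of -1.45, and the red cell genes for 15 of 15, with a median of -1.36. T cell markers lay above NORA for 12 of 15 (median 0.31) and neutrophil markers for 7 of 8 (median 0.80). The part of these markers in the differences was not tested.

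The 4 members above NORA at an unadjusted p under 0.05 (3.12% of all probe sets) were subunits of complex I, Ndufb10, Ndufa2, Ndufs7 and Ndufv1. Among the 6 core subunits measured (Ndufv1, Ndufv2, Ndufs1, Ndufs3, Ndufs7 and Ndufs8), 5 lay above NORA, with a median of 0.44. Ndufs7, which carries the last iron-sulfur cluster before ubiquinone, read 11.34, 10.92 and 10.88 in NORA and 11.48 and 11.61 in RA (0.50 ± 0.22). Ndufs3, its neighbour in the same arm, differed by 0.54 ± 0.25 and Ndufv1 by 0.42 ± 0.19, both without overlap. Ndufs1, the largest of the core subunits, was the exception at -0.18. Of the accessory subunits, Ndufa2 read 10.94, 10.66 and 10.34 in NORA and 11.28 and 11.11 in RA (0.55 ± 0.23), and Ndufb10 10.90, 10.68 and 10.65 against 11.10 and 11.24 (0.43 ± 0.17). The adjusted p of the genes given here with an SE was 0.58 in the limma fit.

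In complex II all 4 subunits, read from the chosen probe sets, differed by 0.26 to 0.29, while the second probe set of Sdhd differed by 0.09. Sdha, the flavoprotein that oxidizes succinate, read 11.25, 11.25 and 10.999 in NORA and 11.46 and 11.43 in RA. Sdhb, the iron-sulfur subunit, read 11.20, 11.46 and 11.09 against 11.63 and 11.45, and its groups overlapped. In complex III, Uqcrfs1 read 12.95, 12.52 and 11.99 in NORA and 13.02 and 13.0002 in RA (0.52 ± 0.25), and Uqcrh lay lowest at -0.21. That sign of Uqcrh was lost under quantile normalization (0.090) and under centring on the array median (0.011). In complex IV the members divided evenly, 6 above and 6 below, from Cox7a1 (-0.77 ± 0.84, which turned to 0.20 with array weights) to Cox7c (0.38 ± 0.26). The 6 below include Cox7a1 and the pseudogene Cox6c-ps1, which exceeded the array median on only 2 and 9 arrays. In complex V all 5 subunits of the F1 head and central stalk lay above NORA, from Atp5f1b (0.05) to Atp5f1e (0.41), as did the 4 of the peripheral stalk. RA lay above NORA without overlap for 23 members (11.7% of all probe sets) and below it for 3 (9.33%).

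**Figure D3:**
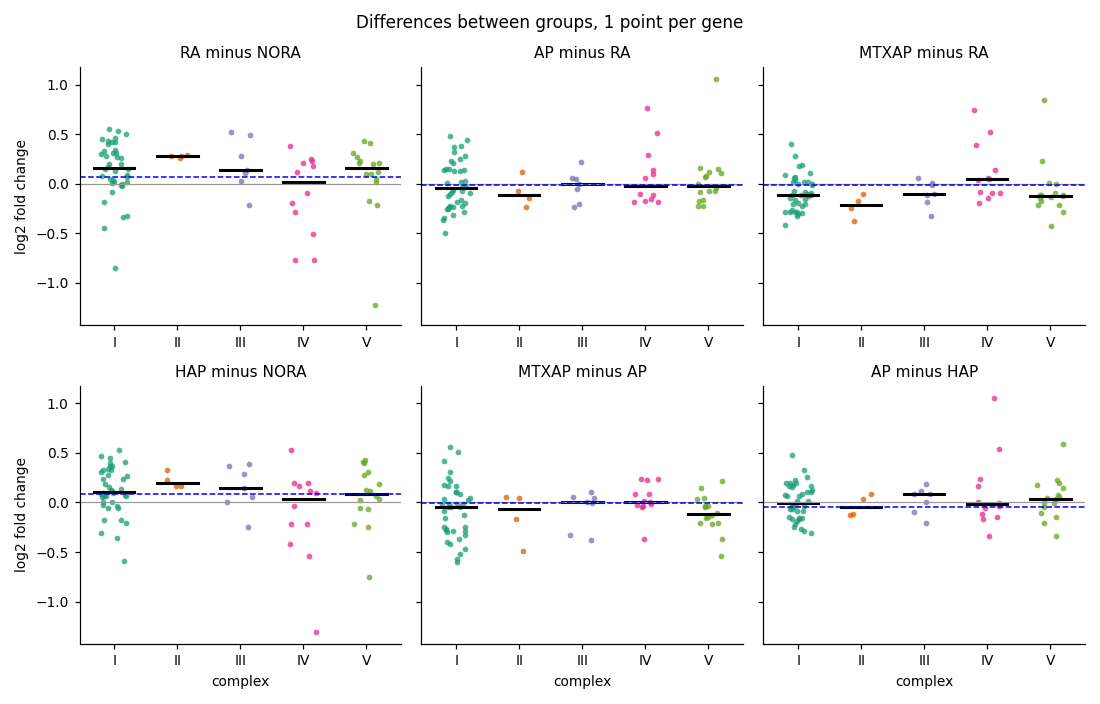
Log2 fold change of each of the 79 tested genes by complex in 6 comparisons, 1 point per gene; black bars are the medians of a complex, dashed lines the median of all 18515 probe sets. Most points lie within 0.5 of 0, and the single low point of complex V in RA minus NORA and the single high one in AP minus RA are Atp5if1.

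The second comparison asks how arthritic rats on day 34 of acupuncture differed from those before therapy. AP lay above RA for 35 of 79 members (49.2% of all probe sets), with a median of -0.04 against -0.01. No probe set passed the adjusted p, in the limma fit or without moderation (0%), and 1 member stood at an unadjusted p under 0.05, against 7.83% of all probe sets (1450; 3.9% higher). It was Cox5a, which read 8.69 and 8.999 in RA and 9.44, 9.62 and 9.78 in AP, a difference of 0.77 ± 0.33 (adjusted p = 0.62). It no longer stood there without RA replicate 1, RA replicate 2, AP replicate 2 or AP replicate 3. The count was 2 without moderation (6.98% of all probe sets), and 4 with array weights (21.5%) and without AP replicate 1 (10.4%). Atp5if1 read 12.39 and 12.94 against 13.38, 13.71 and 14.06 (1.06 ± 0.48, 2.08-fold, adjusted p = 0.62), again without overlap. The platelet markers were above RA for 11 of 12 genes with a median of 1.11, red cell genes for 14 of 15 (0.71), monocyte markers for 10 of 11 (0.55) and T cell markers for 4 of 15 (-0.41). The actin 3′ to 5′ ratio was 2.44 to 2.69 in AP and 2.77 to 2.83 in RA. Their part was not tested.

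Groups did not overlap for 14 members above RA (16.2% of all probe sets) and 21 below it (19.7%). In complex I the largest value was that of Ndufs1, which read 8.92 and 8.72 in RA and 8.93, 9.19 and 9.79 in AP (0.48 ± 0.27). The smallest was that of Ndufaf8, an assembly factor, at -0.50 ± 0.27. The core subunits Ndufs3 (-0.35 ± 0.25), Ndufs7 (-0.22) and Ndufv1 (-0.24) lay below RA. In complex II, Sdhd read 12.10 and 12.11 in RA and 11.93, 11.88 and 11.81 in AP (-0.24), whereas its second probe set lay above RA (0.09). Sdhb was above RA (0.12), a sign that turned to -0.012 when arrays were centred on their median. In complex III the values ran from Uqcrfs1 (-0.24) to Uqcr11 (0.22), and in complex IV from Cox7c (-0.19) to Cox5a.

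The third comparison sets arthritic rats given both methotrexate and acupuncture against those before therapy. MTXAP lay above RA for 25 of 79 members (48.1% of all probe sets), with a median of -0.11 against -0.02. Relative to the median of all probe sets, 28 members lay above it under the deposited scaling and under centring, and 26 under quantile normalization. No probe set passed the adjusted p, also without moderation (0%), and 1 member stood at an unadjusted p under 0.05 (5.4% of all probe sets, 999; 2.85% lower). It was Atp5f1c, the gamma subunit that turns inside the F1 head, which read 12.14 and 12.16 in RA and 11.55, 11.77 and 11.85 in MTXAP (-0.42 ± 0.17, adjusted p = 0.92). It no longer stood there without RA replicate 1, RA replicate 2 or MTXAP replicate 1. The count was 11 without moderation (5.82% of all probe sets) and 6 with array weights (11.2%).

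Groups did not overlap for 20 members below RA (12.5% of all probe sets) and 2 above it (9.27%). All 4 subunits of complex II lay below RA, from Sdhb (-0.38 ± 0.19) to Sdhc (-0.10), and so did all 6 core subunits of complex I, from Ndufs8 (-0.41 ± 0.29) to Ndufs3 (-0.10). All 5 subunits of the F1 head and central stalk also lay below RA, from Atp5f1c (-0.42) to Atp5f1e (-0.0038). So did all 4 of the peripheral stalk, between -0.21 and -0.09. Complex III ranged from Uqcrc2 (-0.32 ± 0.19) to Uqcrh (0.06). Complex IV was the only one with more members above RA (7 of 12) than below, and its values ran from Cox7a2l (-0.19) to Cox7a1 (0.74 ± 0.84). The 7 include Cox7a1 and the pseudogene Cox6c-ps1, which exceeded the array median on only 2 and 9 arrays. The inhibitor Atp5if1 read 13.88, 13.91 and 12.74 in MTXAP against 12.39 and 12.94 in RA, overlapping, a difference of 0.85 ± 0.48 (adjusted p = 0.99). Platelet markers lay above RA for 12 of 12 genes (median 0.78), T cell markers for 2 of 15 (-0.45) and NK cell markers for 3 of 13 (-0.50). The actin ratio was 3.13 to 5.01 in MTXAP and 2.77 to 2.83 in RA. Their part was not tested.

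The comparison of MTXAP with AP, both arthritic and both sampled on day 34, has methotrexate as its labelled difference. MTXAP lay above AP for 32 of 79 members (49.4% of all probe sets), with a median of -0.03 against -0.01, a difference from all probe sets that had the opposite sign under quantile normalization. No member passed the adjusted p in the limma fit (0% of all probe sets) or without moderation, where 5 probe sets did. At an unadjusted p under 0.05 stood 7 members, all below AP, against 14.8% of all probe sets (2746), of which 7.76% of all were below. Without AP replicate 3 the count was 1 (8.94% of all probe sets). It was 2 without MTXAP replicate 1 (9.93%) and 4 without MTXAP replicate 2 (15.1%). It was between 5 and 9 (10.1% to 18.5%) without each of the other NORA, HAP, AP and MTXAP arrays. It was 2 with arrays centred on their median (11.4% of all probe sets), and 13 both without moderation (14.8%) and with array weights (19.9%).

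Atp5f1c had the lowest p of all members in any comparison. It read 12.18, 12.31 and 12.31 in AP and 11.55, 11.77 and 11.85 in MTXAP, a difference of -0.54 ± 0.15 with an adjusted p of 0.20, and the MTXAP arrays were the 3 lowest of all 14. Sdhb read 11.50, 11.62 and 11.86 in AP and 11.15, 11.16 and 11.18 in MTXAP (-0.49 ± 0.17, adjusted p = 0.25), close together in MTXAP and apart from AP. Uqcrc2, a core subunit of complex III, read 12.23, 12.53 and 12.51 against 11.99, 12.14 and 12.01 (-0.38 ± 0.17, adjusted p = 0.32). Its second probe set, with r = 0.18 to the first, differed by 0.04. In complex I, Ndufs1 read 8.93, 9.19 and 9.79 against 8.73, 8.53 and 8.87 (-0.60 ± 0.24), and the accessory subunits Ndufa8 (-0.52 ± 0.21), Ndufb1 (-0.42 ± 0.16) and Ndufb5 (-0.40 ± 0.15) were also lower without overlap. Their adjusted p lay between 0.28 and 0.30. Groups did not overlap for 16 members below AP (10.7% of all probe sets) and 4 above it (12.1%). The 4 peripheral stalk subunits all lay below AP (-0.37 to -0.04), and the assembly factors Ndufaf4 (0.56 ± 0.30) and Ndufaf5 (0.51 ± 0.24) lay above it. Markers of other cells lay below AP as well. NK cell markers were above AP for 0 of 13 genes (median -0.74, 6 at an unadjusted p under 0.05), with a score of -0.26 to 1.09 in AP and -0.70 to -0.03 in MTXAP. Monocyte markers were above AP for 1 of 11 (median -0.75, 4 at an unadjusted p under 0.05), with a score of 0.11 to 0.92 in AP and -1.10 to 0.27 in MTXAP. Red cell genes had a median of -1.10 with 2 of 15 above, and platelet markers -0.22 with 3 of 12 above. The actin ratio was 2.44 to 2.69 in AP and 3.13 to 5.01 in MTXAP. Their part in the lower members was not tested.

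**Figure D4:**
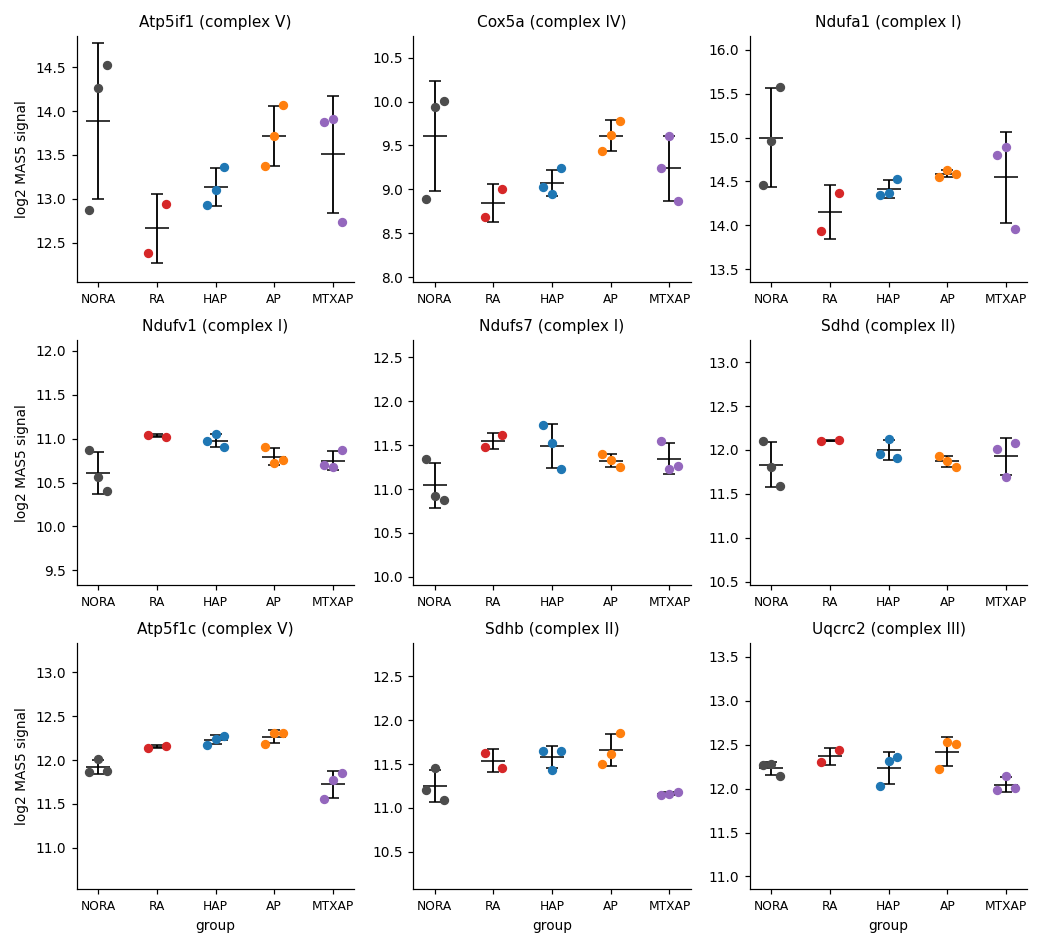
Log2 MAS5 signal of 9 members on each of the 14 arrays by group, with group mean (horizontal bar) and SD (error bar); every panel spans the same height on the log2 scale. Atp5if1, Cox5a and Ndufa1 are lowest in RA and spread widely in NORA, while Atp5f1c, Sdhb and Uqcrc2 have their lowest group mean in MTXAP.

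The comparison of HAP with NORA covers the healthy rats, whose groups differ in day and in acupuncture. HAP lay above NORA for 57 of 79 members, where 59.6% of all probe sets did, with a median of 0.11 against 0.09. At an unadjusted p under 0.05 stood 4 members (6.18% of all probe sets, 1144), all above NORA (3.72%), and none passed the adjusted p with or without moderation (0%). The count was 18 without NORA replicate 1 (18.7% of all probe sets). It was 0 to 4 (3.48% to 6.98%) without each of the other NORA, HAP, AP and MTXAP arrays. It was 14 without moderation (6.11% of all probe sets), 21 with array weights (20.1%), 0 with no filter (5.13%) and 1 with arrays centred on their median (4.79%). Ndufs7 read 11.73, 11.52 and 11.23 in HAP against 11.34, 10.92 and 10.88 in NORA (0.45 ± 0.20), and Cox7c 12.34, 12.29 and 12.10 against 12.05, 11.87 and 11.21 (0.53 ± 0.24). Ndufb7 (0.47 ± 0.21) and Atp5mk, a small subunit of the membrane part of ATP synthase (0.41 ± 0.18), followed. The adjusted p was 0.75 for the 4. No member lay below NORA without overlap (2.82% of all probe sets), and 11 lay above it (6.79%), among them Ndufv1, Atp5f1c and Atp5me. Atp5if1 (-0.75) and Ndufa1 (-0.59 ± 0.30) lay below NORA, with overlap. Platelet markers lay above NORA for 1 of 12 genes (median -0.66) and red cell genes for 1 of 15 (-0.86), against 11 of 11 monocyte markers (0.38), 10 of 10 B cell markers (0.46) and 7 of 8 neutrophil markers (0.90). The actin ratio was 3.35 to 4.36 in HAP and 1.97 to 3.01 in NORA. Their part was not tested. The RA and the HAP comparisons share the NORA arrays, so their values are not independent of each other.

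The comparison of AP with HAP sets arthritic against healthy rats, both on day 34 of acupuncture. AP lay above HAP for 41 of 79 members (44.6% of all probe sets), with a median of 0.01 against -0.05, and this small median was -0.02 under quantile normalization and 0.10 under centring. No member stood at an adjusted p of 0.05, nor at an unadjusted one (5.68% of all probe sets, 1052), and 1 probe set passed the adjusted p without moderation. AP lay above HAP without overlap for 12 members (7.08%) and below it for 5 (10.8%). NK cell markers lay above HAP for 12 of 13 genes (median 0.74, 4 at an unadjusted p under 0.05), platelet markers for 10 of 12 (0.55) and red cell genes for 13 of 15 (0.23). The actin ratio was 2.44 to 2.69 in AP and 3.35 to 4.36 in HAP, and the part of these was not tested. Cox5a read 9.44, 9.62 and 9.78 in AP and 9.03, 8.95 and 9.24 in HAP (0.54 ± 0.30), Ndufs1 differed by 0.48 ± 0.24, and Atp5me, a membrane subunit of ATP synthase, by -0.34 ± 0.20. The adjusted p of these 3 was 0.81. Cox7a1 differed by 1.05 ± 0.76, and by 0.10 without HAP replicate 1, its lowest array.

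Whether the change to day 34 differed between arthritic and healthy rats was tested as the difference between AP minus RA and HAP minus NORA. It was above 0 for 26 of 79 members (43.7% of all probe sets), with a median of -0.17 against -0.11. No probe set passed the adjusted p, also without moderation (0%), and 6 members stood at an unadjusted p under 0.05 (13.1% of all probe sets, 2423), 3 above 0 (6.1%) and 3 below (6.99%). Cox5a (1.30 ± 0.44), Atp5if1 (1.81 ± 0.65) and Ndufa1 (1.03 ± 0.46) lay above 0, the first 2 with an adjusted p of 0.36 and the last with 0.37. Ndufs3 (-0.75 ± 0.34), Ndufs7 (-0.67 ± 0.29) and Ndufv1 (-0.60 ± 0.25) lay below it, with adjusted p values of 0.36 to 0.38. With array weights, Atp5if1, Cox5a and Ndufv1 passed the adjusted p, at 1651 probe sets in all. In that fit the weight of NORA replicate 2 was 2.825, against 0.32 and 0.29 for NORA replicates 1 and 3. Without NORA replicate 1, Atp5if1 (2.32) and Cox5a (1.66) passed the adjusted p, among 980 probe sets. The platelet markers lay above 0 in this difference for 11 of 12 genes, with a median of 1.98, and the red cell genes for 14 of 15, with a median of 1.55. The members at an unadjusted p under 0.05 were 14 without moderation (12.5% of all probe sets), 23 with array weights (28.7%) and 19 without NORA replicate 1 (25.7%).

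Genes that serve the chain without being members were read from lists. Of 35 assembly factors, 0 passed the adjusted p in any comparison. In MTXAP minus AP, 4 of them stood below AP at an unadjusted p under 0.05 and 2 above, where 14.8% of all probe sets stood there. Below were Uqcc2, needed to assemble cytochrome b (-0.96 ± 0.21, adjusted p = 0.18), Timmdc1 (-0.86 ± 0.22) and Tmem126b (-1.15 ± 0.30), both needed for the membrane arm of complex I, and Coa5 (-0.71 ± 0.23). Above were Sco1, which brings copper to complex IV (1.12 ± 0.39), and Coa7 (1.08 ± 0.39). In AP minus RA, 15 of the 35 lay above RA. At an unadjusted p under 0.05, 4 stood below RA and 0 above, against 7.83% of all probe sets. These 4 were Surf1 (-0.58 ± 0.25), Coa7, Atpaf1 and Cox11, and the lowest adjusted p in the list was 0.62. A list of 11 genes held carriers (Slc25a3, Slc25a4, Slc25a5), outer membrane channels (Vdac1, Vdac2, Vdac3), the electron transfer flavoprotein genes (Etfa, Etfb, Etfdh), Coq10b, and Cyc1, the cytochrome c1 of complex III, whose symbol is outside the rule. Of these, 10 lay above NORA in RA, with a median of 0.28, where 55.5% of all probe sets lay above it. Slc25a3, the phosphate carrier, differed by 0.58 ± 0.24, and Vdac3, a channel of the outer membrane, by -0.92 ± 0.37.

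Of 16 genes of the citric acid cycle and pyruvate dehydrogenase, 13 lay above NORA in RA (median 0.25), against 55.5% of all probe sets. Above RA lay 5 in AP (median -0.17) and 4 in MTXAP (median -0.21), against 49.2% and 48.1% of all probe sets. In MTXAP minus AP, 7 of the 16 lay above AP (median -0.05; 49.4% of all probe sets), and Ogdh differed by -0.72 ± 0.26. Of 16 regulators, 10 lay above AP in MTXAP (median 0.07), against 49.4% of all probe sets. At an unadjusted p under 0.05 stood 1 of them (14.8% of all probe sets). It was Mterf2, a factor that binds mitochondrial DNA, which differed by -2.17 ± 0.57 (adjusted p = 0.19). In MTXAP minus RA, 5 of the 16 lay above RA (median -0.08), and Nrf1 itself differed by -0.60 ± 0.26 (adjusted p = 0.92). Ppargc1a and Perm1 were not above the array median on 2 arrays. Among 12 genes of uncoupling and antioxidant defence, 3 lay above NORA in RA (median -0.54). Sod2, the superoxide dismutase of the matrix, stood at -1.51 ± 0.44 in RA minus NORA (adjusted p = 0.58) and 1.28 ± 0.44 in AP minus RA. The 73 mitochondrial ribosomal proteins lay above NORA in RA for 65 genes (median 0.29; 55.5% of all probe sets) and in HAP for 64 (median 0.23; 59.6%). None of these lists held a gene past the adjusted p in the 7 comparisons.

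The genes most like the mean of the members over the 14 arrays, out of 10009 others, were Naa38 (r = 0.84), Cnpy2 (0.83), Slc50a1 (0.83), Mtch1 (0.82) and Slc35b2 (0.81). For single members the search was added after their values were seen. The pattern of Atp5if1 was closest to those of Pla1a (r = 0.996), Cd9 (0.99) and F11r (0.99), that of Cox5a to Skap2 (0.99), and that of Ndufa1 to Sdcbp (0.99). That of Ndufv1 was closest to Psme1 (0.94) and Dnajc19 (0.94), and that of Sdhd to Emc7 (0.94).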

How the data were processed

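Total RNA of PBMC was hybridised to 14 Affymetrix rat genome arrays, 1 per sample, in what the study counts as its second experiment. The authors summarised each probe set to 1 intensity (MAS5 signal, linear scale) using mas5 from affy (its version is not given in the sources used here). The deposited arrays share a mean of 500 once the top and bottom 2% of values are left out. Genes were named by the platform annotation: of 31042 probe sets without controls, 20826 have 1 symbol, 436 several and 9780 none. Here log2 of the signal was taken without a pseudocount, and the 18515 probe sets above the array median on at least 2 arrays were fitted with 5 group means in limma 3.58.1 (R 4.3.3; lmFit and eBayes). P-values were adjusted over all 18515 by the Benjamini-Hochberg method, at a threshold of 0.05. Marker correlations used 100000 permutations of the arrays. The fit was tested on simulated data with a capped spread and planted differences larger than those of any member. That test does not show how the fit performs at the differences reported here.

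No read counts lie behind array signals, and the precision is limited by how many arrays there are. Members, gene lists and motifs were chosen with earlier results of these data known. The genes named were the 6 members with the lowest p in each comparison, the highest and lowest of each complex in RA minus NORA, AP minus RA and MTXAP minus RA, a set list of core subunits and the tissue forms; others named were chosen after their values were seen. The roles within complexes I and V were also assigned then. The promoters are those of RefSeq for build GRCr8, and no coordinates come from the array. Alternatives were the scaling, a pseudocount of 32, the filter, a replicate block, array weights, no moderation, the study's thresholds (an unadjusted p of 0.05 and a fold of 2), the arrays of 2 groups only, and each array left out.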

Additional observations from a re-analysis of the deposited data

Results flagged for a closer look

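For 21 of the 46 named and tested members, every AP array lay on one side of the RA mean and every HAP array on the opposite side of the NORA mean. The same held for 27 of all 79 members tested (34.2%) and for 25.1% of all probe sets, and the named members were chosen in part by a low p in this difference. The difference between both changes was tested in the limma fit and passed an adjusted p of 0.05 for none of them (0.36 to 0.661). On the log2 scale it was above 0 for Atp5if1 (1.81), Cox5a (1.30), Ndufa1 (1.03), Ndufa11 (0.59) and Cox6b1 (0.36). It was below 0 for the core subunits of complex I Ndufs3 (-0.75), Ndufs7 (-0.67) and Ndufv1 (-0.60), the other complex I genes Ndufaf8 (-0.69), Ndufa2 (-0.62), Ndufa7 (-0.58), Ndufb7 (-0.55) and Ndufb10 (-0.36), and the complex II anchors Sdhd (-0.40, but 0.11 for its second probe set) and Sdhc (-0.38). The same held for Uqcrfs1 (-0.62) and Uqcrc1 (-0.48) of complex III, Cox7c (-0.72) and Cox6c (-0.22) of complex IV, and Atp5f1e (-0.62) and Atp5mk (-0.57) of complex V. In the group means the platelet score (RA -0.80, AP 0.19, NORA 0.47, HAP -0.25) and the red cell score (RA -0.46, AP 0.35, NORA 0.77, HAP 0.02) were higher in AP than in RA and lower in HAP than in NORA, as were the first 5, and their part was not tested.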

How the results depend on the processing

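No member passed an adjusted p of 0.05 in the limma fit, and of the other settings only array weights and leaving out NORA replicate 1 gave members past it. The array weights of NORA replicates 1, 2 and 3 were 0.32, 2.825 and 0.29, so the weighted NORA mean rests mostly on replicate 2. The counts of all probe sets past the threshold, 0 in the 7 comparisons as reported, were with array weights 765 in RA minus NORA (2 of them members, Atp5if1 and Cox5a), 1 in HAP minus NORA, 2 in MTXAP minus AP and 1651 in the difference of both changes. Without moderated variances they were 5 in MTXAP minus AP and 1 in AP minus HAP. With only probe sets above the array median on all arrays there was 1 in each of these 2 comparisons, and AP minus RA had 1 with no filter and 1 with only the arrays of its 2 groups. Leaving out 1 array gave 0 to 168 in RA minus NORA (the most without NORA replicate 1), 0 to 4 in AP minus RA and in HAP minus NORA, 0 to 13 in MTXAP minus RA, 0 to 1 in MTXAP minus AP and 0 to 980 in the difference of both changes (again without NORA replicate 1). At the study's thresholds the counts were, in the order of the comparisons in the report, 866, 670, 423, 833, 426, 347 and 1886, with 1 member (Atp5if1) in the first and 3 in the last. The cause was not tested.

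The member medians kept their sign in every setting except AP minus HAP. Centring on the array median gave 0.39 in RA minus NORA, -0.17 in AP minus RA, -0.25 in MTXAP minus RA and 0.10 in AP minus HAP. It moved the median of all probe sets with them, to 0.29, -0.14, -0.16 and 0.05. Quantile normalization gave 0.22 in RA minus NORA and 0.17 in HAP minus NORA, and array weights 0.17 in HAP minus NORA. Leaving out 1 array gave 0.15 to 0.18 in RA minus NORA, -0.06 to -0.01 in AP minus RA, -0.14 to -0.050 in MTXAP minus RA, 0.066 to 0.15 in HAP minus NORA, -0.07 to -0.03 in MTXAP minus AP and -0.03 to 0.03 in AP minus HAP. Of 1455 values of named members in other settings, 1441 kept their direction and side of the threshold and 7 newly passed it. Direction changed for Uqcrh in RA minus NORA (0.090 with quantile normalization, 0.011 with centring) and in MTXAP minus RA (-0.057, -0.086, and -0.043 to 0.163 over leaving out 1 array, the lowest without RA replicate 1), for Cox7a1 in RA minus NORA (0.20 with array weights) and for Sdhb in AP minus RA (-0.012 with centring). Rats were killed at sampling, so the replicate numbers of the titles pair no animals. The deviations of same-numbered arrays had correlations of -0.423 to 0.371 (median 0.055), 10 of 26 over 0.1. Those of different-numbered arrays had correlations of -0.297 to 0.389 (median -0.0435), 14 of 52 over 0.1. A fit with the replicate block left all 7 counts at 0, with 1300 probe sets at an unadjusted p under 0.05 in RA minus NORA against 1569 without it, and member medians of 0.17 in RA minus NORA and -0.10 in MTXAP minus RA.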
